A study of Mus musculus with 4 samples.

Results

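The genes that flank Nfkbiz on mouse chromosome 16 are described here: every named gene of the arrays that lay within 10 Mb of Nfkbiz on either side, without Nfkbiz itself and without genes whose symbols start with Rp, Mrp, Col, Nduf, Eif or Atg. The window ran from chromosome 16 position 45811375 to 65838899 and held 101 transcript clusters, the units for which the arrays give 1 value each. Nfkbiz, Rpl24 and Col8a1 were left out by this rule, so that 98 genes remained of 21904 named genes and 22206 transcript clusters. Expression was measured in the salivary glands of 4 mice, with the parotid, sublingual and submandibular glands of a mouse pooled, on 1 Affymetrix whole-transcript array per mouse. The mice were M47 and M49, which were Nfkbiz-/-, and M30 and M55, which were Nfkbiz+/+. All were female, 20 weeks old and non-cohoused, that is, kept after weaning with mice of their own genotype only. The study describes a background mixed from C57BL/6 and another inbred strain, while the label of M47 gives the strain ICR and the other labels give none.

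Nfkbiz encodes IκB-ζ, a nuclear protein that is induced by microbial products and inflammatory cytokines and that changes the activity of NF-κB at chosen genes. Its neighbors were not targeted. However, a gene that is disrupted in embryonic stem cells of one mouse strain and then bred onto another travels with the DNA around it, because recombination seldom separates neighboring stretches of a chromosome. Mice that are homozygous for a targeted allele can therefore also be homozygous for flanking DNA of the strain that supplied the stem cells, whereas their wild-type counterparts may carry the other strain's DNA there. The strain origin of chromosome 16 was not measured in these files. Loss of Nfkbiz and the origin of the DNA beside it cannot be told apart in a comparison of these genotypes, and neither can genotype and cage.

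Values are robust multi-array average (RMA) values on the log2 scale, so that a difference of 1 is a 2-fold difference. Differences are given as Nfkbiz-/- minus Nfkbiz+/+ and were tested with limma across all 22206 clusters. A gene passed both thresholds when its unadjusted p was under 0.05 and its fold change was at least 1.5. The medians of the 4 arrays lay between 4.83 and 4.89, and the number of arrays limits the precision: with 2 mice against 2, the smallest 2-sided exact permutation p is 0.333. The labels do not say whether the mice of a genotype were littermates. The 6 salivary acinar markers found had a summed level, as log2 of the summed linear values, of 15.2 to 15.3 in Nfkbiz-/- mice, against 14.7 to 15.3 in Nfkbiz+/+ mice. Of other markers, 4 of 5 erythroid genes were lower and 2 of 4 granular duct genes were higher in Nfkbiz-/- mice past both thresholds, and 0 of 3 B cell genes passed. The summed erythroid level was 7.83 in M47 and 9.35 in M49, against 12.30 in M30 and 11.62 in M55. The summed granular duct level overlapped, with 13.70 in M47 and 13.56 in M49, against 13.29 in M30 and 13.73 in M55. The granular duct gene Klk1 had a negative log2 fold change (-0.17, SE 0.21). Among the erythroid genes, Hba-a1 and Hba-a2 had identical values in each mouse, so that 1 measurement may be counted for 2 genes. Fat, muscle, T cell and macrophage markers are given further below, and whether they move with the flanking genes was not tested. Nfkbiz itself had a log2 value of 6.18 in M47 and 5.78 in M49, against 5.04 in M30 and 7.29 in M55. The Nfkbiz+/+ mice thus lay on both sides of the Nfkbiz-/- mice. The probe positions within Nfkbiz are not given in the sources used here, and these values do not check the genotype.

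Of the 98 flanking genes, 7 passed both thresholds, which is 7.14%, against 6.62% of all clusters. Of these, 4 were higher in Nfkbiz-/- mice (4.08%, against 2.93% of all clusters) and 3 were lower (3.06%, against 3.69%). An unadjusted p under 0.05 alone was reached by 8 genes (8.16%, against 9.07%). Both mice of a genotype lay to one side of the other genotype for 44 genes (44.9%, against 39.7%), with Nfkbiz-/- above in 18 and below in 26. The shares of flanking genes were thus near those of the whole array by each of these counts. After Benjamini-Hochberg adjustment over all clusters, 0 flanking genes and 0 clusters in all had an adjusted p under 0.05 by limma, and the lowest adjusted p of a flanking gene was 0.468. The fold change was at least 1.5 for 9 genes and at least 2 for 2 genes, St3gal6 and Abi3bp. By contrast, 47 genes differed by less than 0.2 on the log2 scale.

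**Figure D1:**
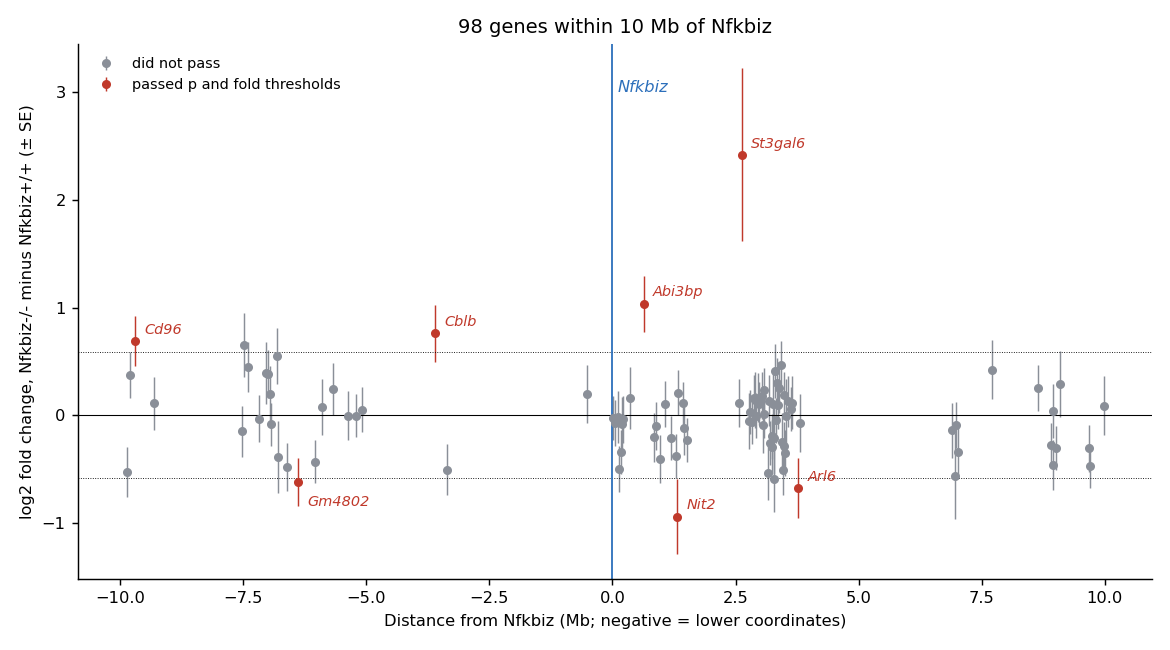
Each point is 1 of the 98 flanking genes, placed by its distance from Nfkbiz in Mb (horizontal axis, negative at lower coordinates) and by its log2 fold change, Nfkbiz-/- minus Nfkbiz+/+, with its standard error from limma (vertical axis; n = 2 mice per genotype). Dotted lines mark a fold change of 1.5, the vertical line marks Nfkbiz, and the 7 genes past both thresholds are named, from Cd96 at -9.69 Mb to Arl6 at 3.77 Mb.

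The genes next to Nfkbiz showed small differences. On the side of higher coordinates the nearest was Nxpe3, a gene of the neurexophilin and PC-esterase domain family, which started 1.1 kb from the end of Nfkbiz. Its log2 values were 2.61 in M47 and 2.62 in M49, against 2.59 in M30 and 2.70 in M55, and its log2 fold change was -0.03 (SE 0.20). Nxpe3 lay below the lower quartile of mean values on the arrays, 3.50, as did Gm6958, a predicted gene at 122 kb (-0.02, SE 0.24). Cep97, whose product sits at the centrosome and restrains the growth of cilia, lay at 61.0 kb. It had 5.13 in M47 and 5.31 in M49, against 5.40 in M30 and 5.19 in M55 (log2 fold change -0.07, SE 0.21). For these 3 genes the values of the genotypes overlapped.

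The next neighbors on this side had lower values in both Nfkbiz-/- mice than in both Nfkbiz+/+ mice. Zbtb11os1, a non-coding RNA gene on the strand opposite to its partner Zbtb11, lay at 134 kb and had 5.71 in M47 and 5.44 in M49, against 6.14 in M30 and 6.01 in M55. A log2 fold change of -0.50 (SE 0.21, unadjusted p = 0.0489 and adjusted p = 0.547 from limma) was short of the fold threshold. Pcnp, which encodes a nuclear protein with a PEST sequence, lay at 168 kb and had 7.82 in M47 and 7.73 in M49, against 8.06 in M30 and 8.17 in M55 (-0.34, SE 0.20, adjusted p = 0.661). Both overlap the ribosomal protein gene Rpl24 on the opposite strand, by 1350 and 1669 bases. Rpl24 itself, outside the 98 genes by its symbol, had a log2 fold change of -0.77. Whether the probes of these genes share template was not tested.

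On the side of lower coordinates the gene density was low, and only Zpld1, a zona pellucida-like domain gene at 513 kb, lay within 1 Mb. Zpld1 had 3.69 in M47 and 4.29 in M49, against 3.97 in M30 and 3.62 in M55 (0.19, SE 0.27). Then came Alcam at 3.36 Mb, an adhesion molecule of leukocytes and epithelium that binds CD6 on T cells, and Cblb at 3.60 Mb. Alcam had the highest mean signal of the 98 genes, 8.81, with 8.61 in M47 and 8.50 in M49, against 8.83 in M30 and 9.30 in M55. Both Nfkbiz-/- mice were below both Nfkbiz+/+ mice, but the difference did not pass (-0.51, SE 0.24, adjusted p = 0.575). Farther out were the non-coding RNA gene Dubr at 5.08 Mb (0.05, SE 0.21) and Ccdc54, a coiled-coil gene at 5.22 Mb (0.00, SE 0.20), both with overlapping values. Of the 5 nearest genes on each side, Cblb alone passed both thresholds.

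Nxpe3 is the gene nearest to Nfkbiz, and Zbtb11os1 is the nearest gene whose genotypes did not overlap. Their promoters are printed to let the letters around these starts be compared. Each sequence covers 250 bases before to 50 bases after the start of the gene and was taken from the RefSeq annotation of GRCm38.p6, read 5′ to 3′ on the strand of the gene. These are reference sequences and not those of the mice measured. Capitals mark letters of the kappa B consensus, bound by NF-κB proteins, found on either strand.
Nxpe3, chr16:55895230-55895529, minus strand: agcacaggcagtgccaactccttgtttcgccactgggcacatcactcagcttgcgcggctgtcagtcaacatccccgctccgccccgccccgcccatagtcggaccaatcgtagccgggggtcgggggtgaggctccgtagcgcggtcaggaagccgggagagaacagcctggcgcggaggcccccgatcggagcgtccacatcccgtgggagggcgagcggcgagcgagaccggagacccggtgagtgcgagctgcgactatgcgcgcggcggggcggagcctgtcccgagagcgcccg
Zbtb11os1, chr16:55974568-55974867, minus strand: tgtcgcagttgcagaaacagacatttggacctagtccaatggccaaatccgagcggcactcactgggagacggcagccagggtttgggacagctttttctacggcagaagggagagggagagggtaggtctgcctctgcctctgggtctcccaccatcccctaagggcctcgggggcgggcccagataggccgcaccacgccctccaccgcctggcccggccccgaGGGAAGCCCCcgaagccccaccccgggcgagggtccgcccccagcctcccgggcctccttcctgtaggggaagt
The promoter of Zbtb11os1 holds 1 run of kappa B letters, and that of Nxpe3 holds none. Of the 98 genes 79 had an entry in the promoter table. The kappa B letters were found in 3 of these 79 promoters (3.80%), those of Zbtb11os1, Tbc1d23 and Olfr175-ps1, against 4.51% of the 32851 promoters in the table. The letters GAAANNGAAA on either strand, a form of the interferon response element with N for any base, were found in 3 promoters (3.80%), those of Adgrg7, Tomm70a and Gpr15, against 3.44%. Tbc1d23, Olfr175-ps1, Adgrg7 and Gpr15 are named here because they hold these letters. None of the 4 passed both thresholds, and their log2 fold changes were 0.21, 0.11, -0.10 and 0.16.

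Of the 7 genes past both thresholds, Abi3bp lay nearest to Nfkbiz, at 0.639 Mb. It encodes an extracellular matrix protein of connective tissue. Its log2 values were 4.92 in M47 and 4.28 in M49, against 3.47 in M30 and 3.65 in M55. Both Nfkbiz-/- mice were thus above both Nfkbiz+/+ mice, and the gap between the genotypes was as wide as the gap between M47 and M49. The difference on the log2 scale was 1.04 (SE 0.26, unadjusted p = 0.00471 and adjusted p = 0.468 from limma), a 2.05-fold difference. Abi3bp passed both thresholds without each of the 4 mice in turn, with a log2 fold change between 0.72 and 1.35, and it was the only one of the 7 genes to do so.

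St3gal6 had the largest difference of the 98 genes. It encodes a sialyltransferase that adds sialic acid to galactose at the ends of glycan chains and takes part in making selectin ligands. It lay 2.63 Mb from Nfkbiz on the side of higher coordinates and was among the 5 flanking genes with the highest mean signal. Its log2 values were 8.69 in M47 and 9.23 in M49, against 8.03 in M30 and 5.05 in M55. The value of M55 stood apart from the other 3, and the mice of the Nfkbiz+/+ genotype were farther from each other than M30 was from M47 or M49. The mean difference was 2.42 (SE 0.80, unadjusted p = 0.0181 and adjusted p = 0.478 from limma). Without M55 the difference was 0.93, and without M30 it was 3.91. Without M49 it was 2.15 and no longer passed both thresholds. Each of these fits leaves 1 genotype with 1 mouse, so that the spread between its mice is not measured.

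M55 also stood apart in genes of other kinds. Of the 6 acinar markers found, the amylase gene Amy1 had 12.9 in M47 and 12.9 in M49, against 12.9 in M30 and 10.9 in M55, and Smr3a had 12.9 in M47 and 12.9 in M49, against 12.9 in M30 and 10.1 in M55. Bpifa2 was also lowest in M55, by a smaller margin, with 13.26 in M47 and 13.32 in M49, against 13.30 in M30 and 12.84 in M55. The other acinar markers found, Prol1, Aqp5 and Pip, were highest in M55 (12.73, 9.77 and 12.92). The summed level of the 6 fat cell markers, as log2 of the summed linear values, was 6.23 to 6.57 in Nfkbiz-/- mice, against 6.78 to 9.34 in Nfkbiz+/+ mice, and that of the 6 skeletal muscle markers was 6.26 to 6.30 in Nfkbiz-/- mice, against 6.51 to 8.55 in Nfkbiz+/+ mice, in each case with M55 highest. Of these markers 2 of 6 fat cell genes and 3 of 6 skeletal muscle genes were lower in Nfkbiz-/- mice past both thresholds. None of the acinar markers, 1 fat cell marker and 2 skeletal muscle markers had a mean below the lower quartile of all clusters. In whole glands, fewer cells of a type and less RNA per cell cannot be told apart. Their part in the difference of St3gal6 was not tested.

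Cblb and Cd96, both in the list of immune cell surface and signaling genes, were higher in Nfkbiz-/- mice, both on the side of lower coordinates. Cblb encodes a ubiquitin ligase that restrains the activation of T cells. It had 7.01 in M47 and 7.54 in M49, against 6.30 in M30 and 6.72 in M55, without overlap (log2 fold change 0.76, SE 0.27, unadjusted p = 0.022 and adjusted p = 0.495 from limma). Without M49 it was 0.50 and without M30 it was 0.55, and neither passed. Cd96, a receptor of T cells and natural killer cells that binds nectin-family proteins, lay 9.69 Mb away, close to the edge of the window. It had 3.74 in M47 and 3.30 in M49, against 2.77 in M30 and 2.89 in M55, again without overlap (0.69, SE 0.23, unadjusted p = 0.0193 and adjusted p = 0.481). Its mean lay below the lower quartile, and it did not pass without M47 (0.47) or without M30 (0.63). The summed level of the 4 T cell markers was 10.4 in M47 and 8.40 in M49, against 7.19 in M30 and 9.24 in M55. None of these markers had a mean below the lower quartile of all clusters, and 0 of the 4 passed both thresholds. This sum rests mostly on Cd3e, which had 10.2 in M47 and 7.28 in M49, against 4.65 in M30 and 8.92 in M55, whereas Cd4 had 6.67 in M47 and 7.27 in M49, against 6.57 in M30 and 6.65 in M55. Cd3d had 3.67 in M47 and 3.55 in M49, against 3.49 in M30 and 3.33 in M55. Cd8a had 4.26 in M47 and 3.98 in M49, against 3.83 in M30 and 3.59 in M55. The genotypes did not overlap for Cd4, Cd3d and Cd8a, as for 39.7% of all clusters, but did for Cd3e and the sum. The sum, Cd3e, Cd3d, Cd8a and Cd96 were highest in M47, and Cd4 and Cblb were highest in M49. The part of the T cell markers in these differences was not tested.

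The 3 genes that were lower in Nfkbiz-/- mice were Nit2, Arl6 and the predicted gene Gm4802. Nit2 encodes an amidase that clears a product of glutamine transamination, and lay at 1.32 Mb. It had 4.58 in M47 and 3.45 in M49, against 4.91 in M30 and 5.01 in M55. The Nfkbiz+/+ mice were close together, and of the Nfkbiz-/- mice M49 lay far below M47. The mean difference was -0.94 (SE 0.35, unadjusted p = 0.0298 and adjusted p = 0.511 from limma). It was -0.38 without M49, -0.99 without M30 and -0.89 without M55, none of which passed, and -1.50 without M47, where it did.

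Arl6, a small GTPase that recruits the BBSome coat at the base of the cilium, lay at 3.77 Mb. It had 2.22 in M47 and 1.68 in M49, against 2.37 in M30 and 2.89 in M55 (-0.68, SE 0.28, unadjusted p = 0.042 and adjusted p = 0.528 from limma). It did not pass without M49 (-0.41) or without M55 (-0.42). Gm4802, 6.39 Mb away on the other side and named because it completes the 7, had 2.67 in M47 and 2.65 in M49, against 3.09 in M30 and 3.49 in M55 (-0.62, SE 0.22, unadjusted p = 0.025 and adjusted p = 0.502). It passed without M30 (-0.82) but not without any of the other 3 mice. Both genes lay below the lower quartile of mean values.

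**Figure D2:**
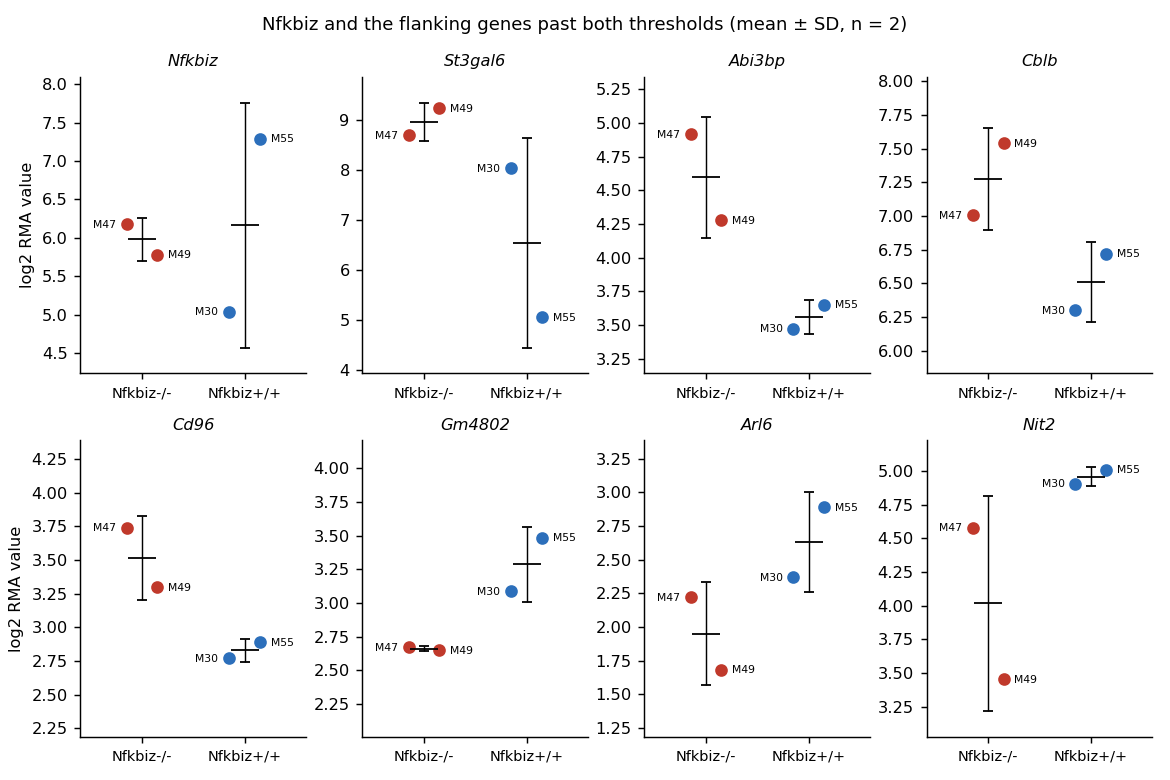
Log2 RMA values of each mouse for Nfkbiz and the 7 flanking genes past both thresholds, with M47 and M49 (Nfkbiz-/-) on the left and M30 and M55 (Nfkbiz+/+) on the right of each panel. Bars give mean ± SD (n = 2), and each panel has its own vertical axis. The genotypes do not overlap for any of the 7 genes but do for Nfkbiz, and M55 lies far below M30 for St3gal6 (5.05 against 8.03).

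The promoters of 4 of these genes are printed beside their values, to show the sequence at the starts of the genes that passed both thresholds and had the largest fold change in each direction. Abi3bp had no entry in the promoter table, and neither had Nfkbiz. Capitals would mark kappa B or interferon response letters. No capitals appear.
St3gal6, chr16:58524204-58524503, minus strand: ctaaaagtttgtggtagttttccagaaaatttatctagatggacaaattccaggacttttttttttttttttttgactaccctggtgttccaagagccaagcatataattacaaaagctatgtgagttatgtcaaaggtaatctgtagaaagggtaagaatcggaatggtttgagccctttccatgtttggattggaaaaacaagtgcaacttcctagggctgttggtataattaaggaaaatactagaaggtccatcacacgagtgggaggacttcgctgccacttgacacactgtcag
Cblb, chr16:52031299-52031598, plus strand: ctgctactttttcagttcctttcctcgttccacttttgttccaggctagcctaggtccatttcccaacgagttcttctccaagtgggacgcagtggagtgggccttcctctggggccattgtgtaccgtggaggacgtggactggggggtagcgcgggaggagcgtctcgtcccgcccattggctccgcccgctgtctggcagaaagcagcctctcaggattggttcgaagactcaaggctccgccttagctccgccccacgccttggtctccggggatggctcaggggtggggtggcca
Nit2, chr16:57167283-57167582, minus strand: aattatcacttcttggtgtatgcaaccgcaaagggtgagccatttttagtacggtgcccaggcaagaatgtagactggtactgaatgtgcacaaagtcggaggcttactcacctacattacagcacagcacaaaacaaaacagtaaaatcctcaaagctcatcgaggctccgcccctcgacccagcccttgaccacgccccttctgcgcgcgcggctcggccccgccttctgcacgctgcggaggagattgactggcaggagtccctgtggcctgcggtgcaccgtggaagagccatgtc
Arl6, chr16:59639360-59639659, minus strand: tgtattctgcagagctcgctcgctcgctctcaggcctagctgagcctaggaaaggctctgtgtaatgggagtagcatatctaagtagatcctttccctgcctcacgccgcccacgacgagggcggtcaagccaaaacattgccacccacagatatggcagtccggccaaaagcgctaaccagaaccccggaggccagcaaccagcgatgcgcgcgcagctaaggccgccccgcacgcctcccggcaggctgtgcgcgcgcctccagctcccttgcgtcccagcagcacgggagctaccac
None of the 6 promoters at hand for genes past both thresholds held either set of letters. This says only that the letters are not in these 300 bases. The GC content was 38.7% for St3gal6, 61.3% for Cblb, 56.0% for Nit2 and 63.0% for Arl6, against a median of 48.7% over the 79 promoters.

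Leaving out 1 mouse at a time showed how far the count rested on single animals. The genotype that loses a mouse is left with 1, and it was assumed to vary like the other genotype. Without M47, 8 flanking genes passed both thresholds (8.16%, against 5.05% of all clusters), 5 of them among the 7. Without M49, 6 passed (6.12%, against 5.08%), 2 of them among the 7, namely Abi3bp and Cd96. Without M30, 8 passed (8.16%, against 12.1%), and without M55, 9 passed (9.18%, against 8.93%), in each case 4 of them among the 7. With the test that the methods name in place of limma, taken with unequal variances, 0 flanking genes passed (0%, against 0.955%).

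**Figure D3:**
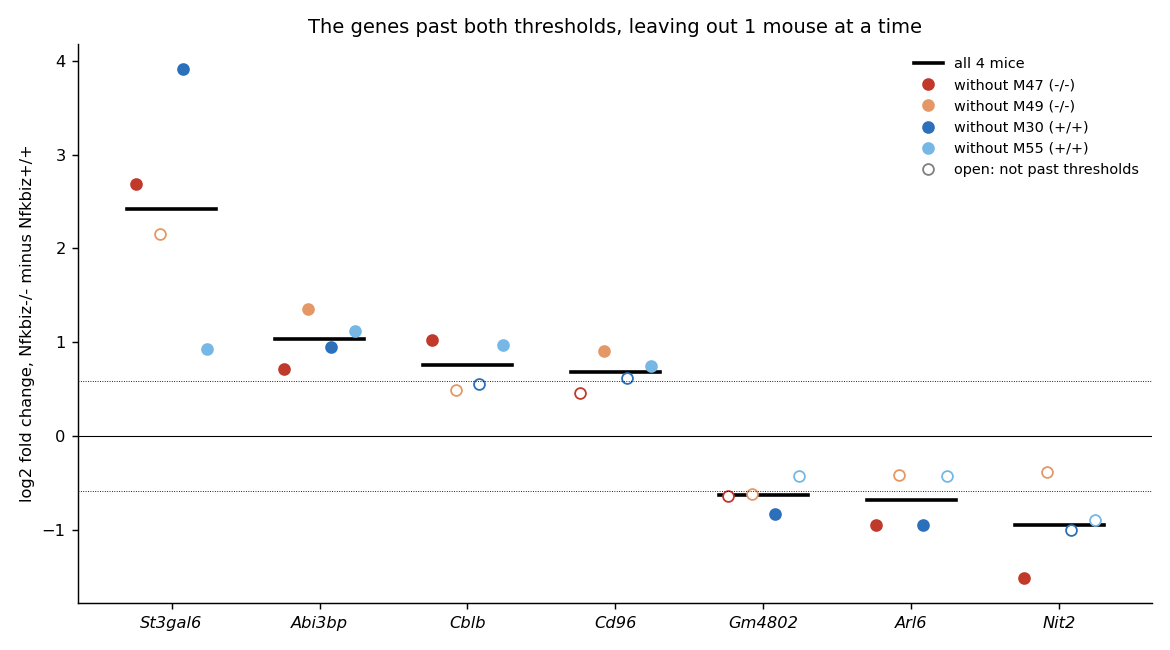
Log2 fold change, Nfkbiz-/- minus Nfkbiz+/+, of the 7 genes past both thresholds (black bars, all 4 mice) and without each mouse in turn (points, in 4 colors). Filled points passed both thresholds and open points did not; dotted lines mark a fold change of 1.5. Only Abi3bp has 4 filled points, and St3gal6 ranges from 0.93 to 3.91.

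The size of the difference did not grow toward Nfkbiz. The median absolute log2 fold change was 0.16 for the 13 genes within 1 Mb, 0.21 for the 8 genes at 1 to 2 Mb, 0.18 for the 41 genes at 2 to 5 Mb and 0.31 for the 36 genes at 5 to 10 Mb. Over all 98 genes it was 0.21, against 0.21 for the rest of chromosome 16 (571 named genes) and 0.20 for the other chromosomes (21232 named genes). The median SD between mice of 1 genotype was 0.22 over the 98 genes, as large as the median difference between genotypes. Over the 98 genes Spearman's rho between distance and absolute log2 fold change was 0.23 and Pearson's r was 0.08. These genes were measured on the same 4 arrays and are not independent, so that the coefficients are descriptions only.

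The sides differed in how the genes lay and in level. The median level was 3.89 on the side of lower coordinates and 3.27 on the side of higher coordinates. The higher side holds the 27 olfactory receptor genes, whose median level was 2.33. On the side of lower coordinates there were 25 genes with a median absolute log2 fold change of 0.39, of which 3 passed both thresholds (12.0%, against 6.62% of all clusters). On the side of higher coordinates there were 73 genes with a median of 0.20, of which 4 passed (5.48%). The 22 genes at 5 to 10 Mb on the lower side had a median of 0.38, and the 14 genes at 5 to 10 Mb on the higher side one of 0.30. Within 1 Mb, 10 of 13 genes had a lower mean in Nfkbiz-/- mice, against 53 of all 98 genes and 11789 of all 22206 clusters. Of these 13 genes Zbtb11os1 and Abi3bp alone had an unadjusted p under 0.05 from limma, in opposite directions, against 9.07% of all clusters. The bins under 2 Mb hold fewer than 20 genes each, and no test of the difference between bins or sides was made.

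The window was set by distance and has no natural border in these values. Just inside it lay Phldb2 on the lower side, with a log2 fold change of -0.53 (SE 0.23), and Vgll3 on the higher side, with 0.09 (SE 0.27). Just outside lay Abhd10 (-0.25, SE 0.23) and Cadm2 (-0.28, SE 0.26). Of the 88 genes 10 to 20 Mb from Nfkbiz on the lower side, 15 passed both thresholds (17.05%, against 6.62% of all clusters), 11 higher and 4 lower in Nfkbiz-/- mice. Of the 83 genes at 20 to 30 Mb on that side 4 passed (4.82%), and of the 143 genes at 30 to 40 Mb 13 passed (9.09%). Of the 15 genes at 10 to 20 Mb on the lower side, some are named here, chosen after the values were seen. They were the interferon-induced genes Parp14 (0.99, SE 0.22) and Parp9 (0.92, SE 0.32) and the costimulatory genes Cd86 (0.81, SE 0.31) and Cd80 (0.70, SE 0.25). The repressor gene Zbtb20 (0.92, SE 0.20) and the copper chaperone gene Cox17 (-1.11, SE 0.36) were also among the 15. The median absolute log2 fold change of the 88 genes at 10 to 20 Mb on the lower side was 0.24. On the higher side, 0 of 9 genes at 10 to 20 Mb passed.

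**Figure D4:**
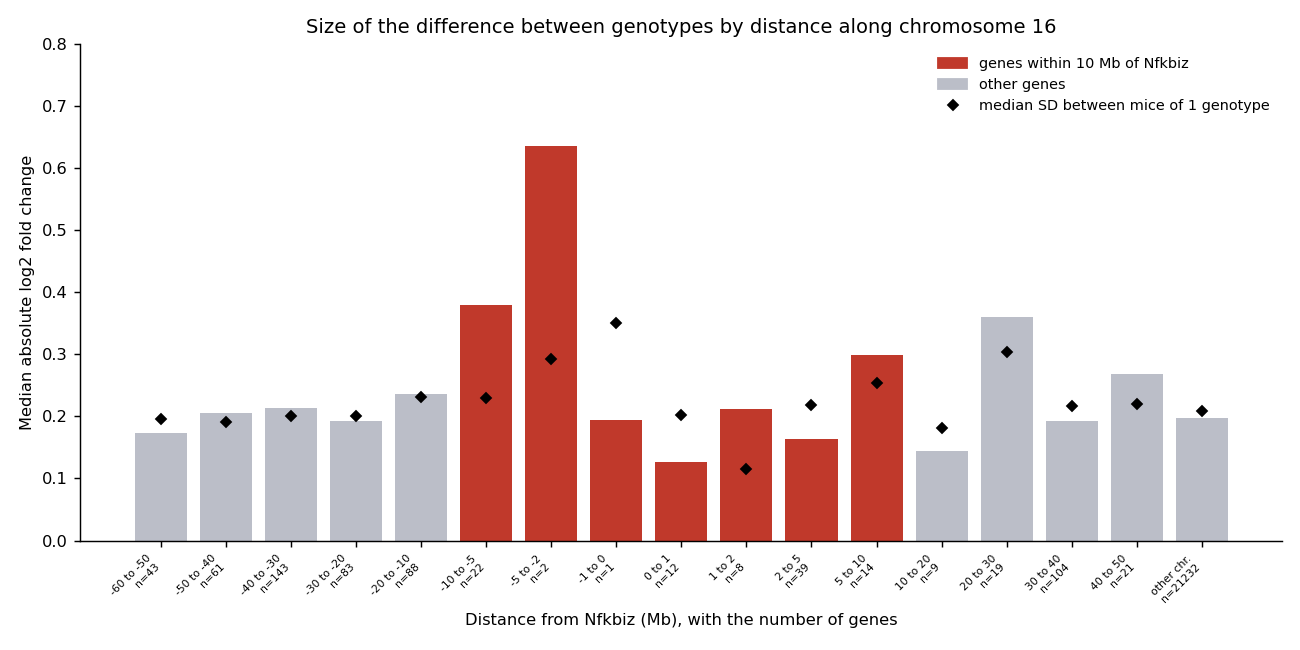
Median absolute log2 fold change between genotypes (bars) and median SD between mice of 1 genotype (diamonds), by distance from Nfkbiz along chromosome 16 in Mb, with the number of genes under each bar. Red bars are the flanking genes and gray bars are the rest of chromosome 16 and the other chromosomes; the tallest bar, at -5 to -2 Mb, holds 2 genes, Alcam and Cblb, and the bar at 0 to 1 Mb stands at 0.13.

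By level, much of the neighborhood was dim. Of the 98 genes 49 had a mean below the lower quartile of all clusters (3.50), 29 were above the median (4.86) and 16 above the upper quartile (6.15), and the means ran between 1.38 and 8.81. The signal of a cluster depends on its probes as well as on its RNA, so that these levels place a gene against the background of the arrays and do not rank amounts of RNA. The 5 with the highest mean signal were Alcam, Pcnp, Senp7, St3gal6 and Cd47. Senp7, a protease that removes SUMO from proteins, had 7.94 in M47 and 7.73 in M49, against 8.02 in M30 and 7.73 in M55 (-0.04, SE 0.22). Cd47, whose product tells macrophages not to engulf a cell, had 7.54 in M47 and 7.09 in M49, against 7.00 in M30 and 7.48 in M55 (0.08, SE 0.26). In both genes the genotypes overlapped. Of the 29 genes above the median 2 passed both thresholds (6.90%, against 6.62% of all clusters), St3gal6 and Cblb.

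A cluster of 27 olfactory receptor genes, which encode odorant receptors of the nose, filled the stretch from 2.92 to 3.52 Mb. Their median level was 2.33, and 26 of the 27 lay below the lower quartile. Of these genes 0 passed both thresholds, against 6.62% of all clusters. There were 13 with a positive and 14 with a negative log2 fold change, and the median absolute log2 fold change was 0.21. The largest moderated statistics belonged to Olfr203 (-0.51, SE 0.23), Olfr201 (0.47, SE 0.22) and Olfr183 (-0.54, SE 0.25). Olfr203 had 2.90 in M47 and 2.50 in M49, against 3.13 in M30 and 3.30 in M55. The median of this dim cluster was thus as large as that of the other 71 genes, 0.21. All 7 calls lay among these 71 genes (9.86%, against 6.62% of all clusters).

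**Figure D5:**
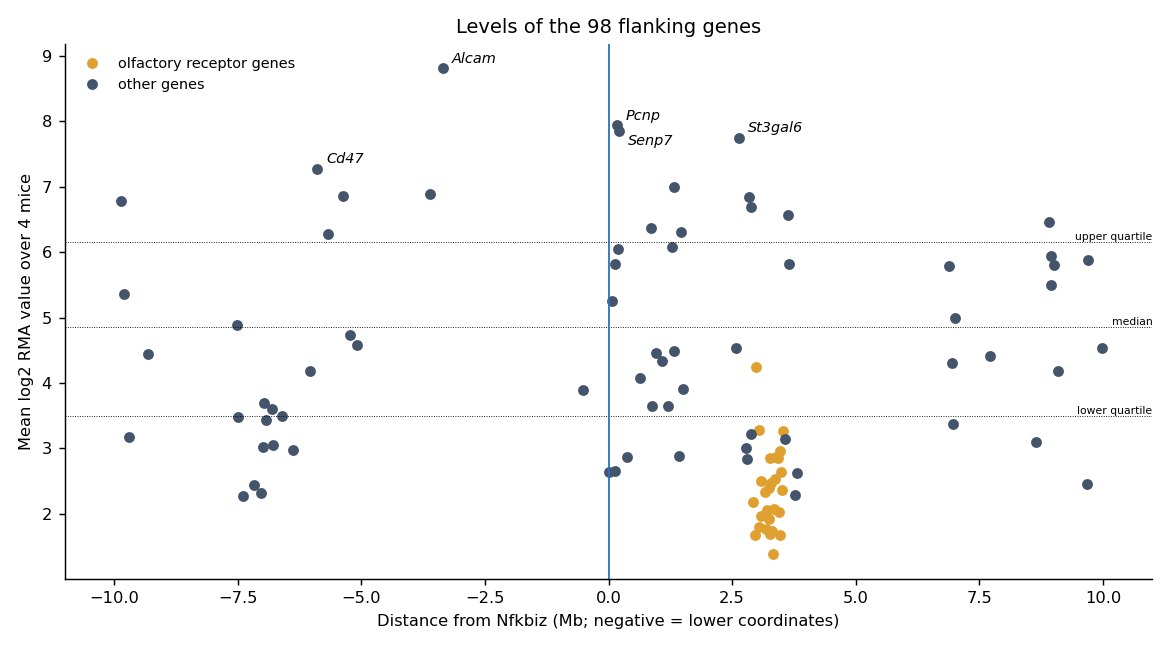
Mean log2 RMA value over the 4 mice (vertical axis) of each of the 98 flanking genes by its distance from Nfkbiz in Mb (horizontal axis, negative at lower coordinates), with the 27 olfactory receptor genes in orange. Dotted lines mark the lower quartile, median and upper quartile of all 22206 clusters (3.50, 4.86 and 6.15), and the 5 genes with the highest means are named.

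The remaining genes are described by role. Of all clusters, 2.93% were higher and 3.69% lower past both thresholds, and each role list holds few genes, so that no list is set apart by its count. Of the 8 genes listed under immune cell surface and signaling, 2 were higher (Cblb and Cd96) and 0 were lower past both thresholds. The median absolute log2 fold change of these 8 was 0.45. Phldb2, listed here and under the cytoskeleton, binds phosphoinositides at the cell cortex, and its place in the immune list is weak. It had 6.71 in M47 and 6.35 in M49, against 7.19 in M30 and 6.91 in M55 (-0.53, SE 0.23, adjusted p = 0.557 from limma). Of the 3 resistin-like genes, which encode small secreted proteins of mucosa and macrophages, 0 passed. Retnlb had 3.01 in M47 and 3.41 in M49, against 2.84 in M30 and 2.81 in M55 (0.39, SE 0.22). Retnla (0.20, SE 0.26) and Retnlg (-0.09, SE 0.20) differed less. The 3 macrophage markers, of which C1qa and Cd68 were higher past both thresholds, had a summed level of 7.42 to 7.61 in Nfkbiz-/- mice, against 6.33 to 7.17 in Nfkbiz+/+ mice. The other marker, Adgre1, did not pass and had 4.61 in M47 and 4.12 in M49, against 4.55 in M30 and 5.12 in M55. None of the 3 macrophage markers had a mean below the lower quartile of all clusters, and their part in the values of the resistin-like genes was not tested.

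Of the 5 genes of cilia and the centrosome, 0 were higher and 1, Arl6, was lower. Ift57, which encodes a subunit of the intraflagellar transport machinery, had 3.96 in M47 and 3.96 in M49, against 4.33 in M30 and 4.46 in M55 (-0.43, SE 0.20, adjusted p = 0.579). Dzip3, a ubiquitin ligase, had 3.54 in M47 and 4.20 in M49, against 3.32 in M30 and 3.32 in M55 (0.55, SE 0.26, adjusted p = 0.586), the opposite direction. Neither passed, although the genotypes did not overlap in either. Over the whole list of cilia and the centrosome they did not overlap for 3 of 5 genes, against 39.7% of all clusters. Dzip3 is also listed under ubiquitin and SUMO, and its place among the cilia genes is weak. Of the 4 genes of ubiquitin and SUMO, 1 was higher, Cblb.

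All 5 genes of mitochondria and metabolism had a negative log2 fold change, against 11789 of all 22206 clusters, and 1 of the 5, Nit2, passed. Tomm70a encodes an import receptor of the outer mitochondrial membrane and adjoins Nit2. It had 5.96 in M47 and 5.83 in M49, against 6.20 in M30 and 6.35 in M55, without overlap, and did not pass (-0.38, SE 0.21, adjusted p = 0.626). Nsun3, an RNA methyltransferase that acts on a mitochondrial transfer RNA, overlapped between genotypes (-0.14, SE 0.26). The promoter of Tomm70a is shown as one of the 3 with interferon response letters, which are in capitals.
Tomm70a, chr16:57121464-57121763, plus strand: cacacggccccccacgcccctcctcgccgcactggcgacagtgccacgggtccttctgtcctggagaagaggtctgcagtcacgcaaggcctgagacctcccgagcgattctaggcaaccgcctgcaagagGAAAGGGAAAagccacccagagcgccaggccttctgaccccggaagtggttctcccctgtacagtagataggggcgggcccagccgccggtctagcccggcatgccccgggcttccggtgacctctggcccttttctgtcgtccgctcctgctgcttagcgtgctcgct

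In 2 lists of 9 and 6 genes, transcription and chromatin and membrane traffic, 0 genes passed. Dppa2, a gene of early embryos and germ cells, had 4.20 in M47 and 3.40 in M49, against 2.99 in M30 and 3.31 in M55, a fold change of 1.57 with an unadjusted p of 0.0634 from limma. Zfp654, a zinc finger gene, had 5.41 in M47 and 5.13 in M49, against 5.54 in M30 and 5.93 in M55 (-0.46, SE 0.23), and Cggbp1, whose product binds CGG repeats, differed by -0.31 (SE 0.20). Chmp2b, a subunit of the ESCRT machinery that bends and cuts membranes, had 5.61 in M47 and 5.68 in M49, against 6.01 in M30 and 6.22 in M55 (-0.47, SE 0.21, unadjusted p = 0.0537 from limma). Plcxd2, a phospholipase-like gene, was 0.37 higher in the mean (SE 0.21), and Filip1l, which overlaps Cmss1 by 220034 bases on the opposite strand, differed by -0.23 (SE 0.21). These 6 genes were named for having the largest moderated statistics of their lists. In each of them the genotypes did not overlap, and none passed both thresholds. Over the whole lists the genotypes did not overlap for 4 of 9 and 4 of 6 genes, against 39.7% of all clusters.

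Of the 11 genes of receptors, adhesion and matrix 1 was higher, Abi3bp. Epha3, an ephrin receptor gene, had 4.95 in M47 and 4.29 in M49, against 4.34 in M30 and 4.05 in M55 (0.42, SE 0.27), with overlap. Tmem45a, a membrane protein gene, had 4.11 in M47 and 4.42 in M49, against 4.81 in M30 and 4.53 in M55 (-0.41, SE 0.23), without overlap. Of the 3 genes listed under glycosylation and glycan modification 1 was higher, St3gal6, while Nxpe3 and Crybg3 (0.12, SE 0.24) differed little. Crybg3 is a crystallin-like gene and its place in that list is weak. All 4 genes listed under the cytoskeleton (Phldb2, Myh15, Cmss1 and Filip1l) had a negative log2 fold change, against 11789 of all 22206 clusters, and 0 passed. The place of Cmss1 in this list is weak as well. The muscle-type myosin gene Myh15 had 3.37 in M47 and 3.14 in M49, against 3.89 in M30 and 3.57 in M55 (-0.48, SE 0.22). Pros1, protein S, a cofactor that limits blood clotting and a ligand of receptors for the clearance of dying cells, had 5.07 in M47 and 4.59 in M49, against 5.29 in M30 and 5.05 in M55 (-0.34, SE 0.24). Its genotypes overlapped by a small margin. Of the 16 genes in none of these lists 1 was lower, Gm4802.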

How the data were processed

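Total RNA of salivary glands from 2 Nfkbiz-/- and 2 Nfkbiz+/+ mice was labeled and hybridized by the authors, 1 whole-transcript array per mouse, and normalized and summarized per gene by the robust multi-array average with Affymetrix Power Tools. The deposited values are log2 RMA values, 1 per cluster and mouse. The deposited table also holds the authors' fold changes and p-values, and another holds their gene ontology and pathway results; these were not used. The same values were deposited a second time, in a series matrix, and did not differ. No source used here gives the annotation's version.

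Genes were taken by the position in the deposited annotation; 93 of the 98 were matched to RefSeq of GRCm38.p6 and overlapped the position given there, and coordinates refer to the deposited annotation unless RefSeq is named. Each gene had 1 cluster of 10 probes. Distance was measured between the nearer ends of a gene and Nfkbiz. Clusters were compared in limma 3.58.1 (R 4.3.3; lmFit, then eBayes; 2 residual and 5.53 prior degrees of freedom), 2-sided, with Benjamini-Hochberg adjustment over all clusters. The fit was tested on simulated data. Motifs were searched on both strands in RefSeq promoters of 300 bases.

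The genes named were Nfkbiz, the 5 nearest on each side, up to 10 higher and 10 lower past both thresholds without predicted genes, up to 3 per role list by moderated statistic, and the 5 with the highest mean signal, 39 flanking genes in all. The 98 genes, the role lists and the marker lists were chosen with earlier results of these data known. Alternatives were another quantile normalization, arrays centered on their median, an intensity trend, only clusters above the median signal, t-tests with equal and unequal variances, a 2-fold threshold, other windows, the series matrix, and leaving out each mouse; a group left with 1 mouse was assumed to vary like the other group.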

Additional observations from a re-analysis of the deposited data

How the results depend on the processing

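The count of 7 flanking genes past both thresholds (7.14%, against 6.62% of all clusters) changed most with the test. By the t-tests with equal and with unequal variances it was 0, against 0.955% of all clusters with unequal variances. The count was 2 at a 2-fold threshold, 2 among the 29 genes above the median signal and 2 among the 21 genes within 2 Mb of Nfkbiz. Shares of all clusters under the equal-variance t-test, the 2-fold threshold and the signal limit are not given here. With Rpl24 and Col8a1 added, the count was 8 among 100 genes. It was 6 after another quantile normalization, where Arl6 did not pass (unadjusted p = 0.0574), and 7 with an intensity trend, with median-centered arrays and with the series matrix. Leaving out 1 mouse gave 6 to 9 genes. Over the same 4 fits the log2 fold change of Nfkbiz ranged from -1.31 to 0.946; it was below 0 without M47 and without M30 and above 0 without M49 and without M55, and it passed both thresholds in opposite directions without M30 and without M55.

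Among the named genes other than Nfkbiz, the sign changed in 20 of the values under the alternatives, all in genes that did not pass. Over the fits without 1 mouse the log2 fold change ranged from -0.108 to 0.497 for Zpld1, from -0.0284 to 0.133 for Dubr, from -0.0667 to 0.0606 for Ccdc54, from -0.0821 to 0.0318 for Nxpe3, from -0.178 to 0.0311 for Cep97, from -0.207 to 0.171 for Gm6958, from -0.108 to 0.499 for Retnla, from -0.43 to 0.147 for Nsun3, from -0.115 to 0.345 for Crybg3, from -0.186 to 0.111 for Senp7 and from -0.163 to 0.32 for Cd47. Ccdc54 had 0.00308 after another quantile normalization and 0.0116 with median-centered arrays. No paired analysis was possible because the labels give the genotypes no shared replicate numbers. The cause of these changes was not tested. The precision is limited by the number of arrays, and 49 of the 98 flanking genes lay below the lower quartile of the signal.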
